A study of Homo sapiens with 12 samples.

Results

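NF-κB is a family of transcription factors built from pairs of related subunits. The 10 genes described here are 4 of its subunit genes (NFKB1, NFKB2, RELA and RELB), 2 genes of the inhibitors that bind the subunits (NFKBIA, encoding IκBα, and NFKBIE, encoding IκBε), 3 genes of signalling and feedback proteins (TNFAIP3, BIRC3 and TRAF1) and the adhesion receptor gene ICAM1. They were chosen by name with earlier results of these data known, so their counts set beside the share of all genes are descriptive. By Ensembl identifiers they were found in the deposited count table, 10 of 63568 identifiers. All 10 passed the filter on low counts, with 25249 identifiers in all. Their lowest count in any library was 293, for ICAM1.

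RNA was sequenced from MDA-MB-231, a triple negative breast cancer line established from a pleural effusion, here carrying a nuclear GFP. All 12 samples were grown in Matrigel, a basement membrane gel, as 6 conditions of 2 biological replicates. C1 were untreated cells of day 2, C2 untreated cells of day 4, and the remaining conditions cells of day 4 given 0.0005, 0.005, 0.05 or 0.5 µM Paclitaxel, a drug that stabilizes microtubules, on day 2 by the labels. The study's methods give a later day for the imaging cultures, so the length of exposure is uncertain. The gel was dissolved enzymatically before lysis in every condition, and treated samples were of day 4 only, so that C1 differed from them in both day and drug.

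In resting cells most NF-κB is held in the cytoplasm by the inhibitors. Signals from receptors of tumour necrosis factor, interleukin 1 and microbial products lead to destruction of the inhibitor, and the freed subunits enter the nucleus and switch on genes with κB sites. Among these genes are NFKBIA, TNFAIP3 and NFKB2 themselves, so the pathway makes its own brakes and parts. RELB and the processed product of NFKB2 form the pair known for the slower, noncanonical branch, and RELA and NFKB1 that for the canonical one. MDA-MB-231 is known for constitutive NF-κB activity.

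The sequence just before the start site is shown for 3 of the 5 genes that rose between the untreated days. The others were RELB, for which no sequence was at hand, and TRAF1, whose 3 windows of 250 bases held no match to the κB consensus. The 250 bases before the RefSeq start (GRCh38.p14) are NFKBIA chr14:35404750-35404999 on the minus strand, TNFAIP3 chr6:137867009-137867258 and ICAM1 chr19:10270870-10271119, the last 2 on the plus strand. Capitals mark matches of either strand to the κB consensus.
NFKBIA: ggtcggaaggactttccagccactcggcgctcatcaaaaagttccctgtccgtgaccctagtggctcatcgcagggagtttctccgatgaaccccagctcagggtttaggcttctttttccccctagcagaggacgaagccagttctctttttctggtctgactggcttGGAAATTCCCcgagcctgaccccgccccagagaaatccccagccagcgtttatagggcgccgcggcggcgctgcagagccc
TNFAIP3: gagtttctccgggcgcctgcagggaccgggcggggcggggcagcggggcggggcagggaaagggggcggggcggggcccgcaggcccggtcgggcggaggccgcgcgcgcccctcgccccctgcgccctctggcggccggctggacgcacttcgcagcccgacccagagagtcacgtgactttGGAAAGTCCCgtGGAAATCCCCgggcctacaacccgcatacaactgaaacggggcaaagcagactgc
ICAM1: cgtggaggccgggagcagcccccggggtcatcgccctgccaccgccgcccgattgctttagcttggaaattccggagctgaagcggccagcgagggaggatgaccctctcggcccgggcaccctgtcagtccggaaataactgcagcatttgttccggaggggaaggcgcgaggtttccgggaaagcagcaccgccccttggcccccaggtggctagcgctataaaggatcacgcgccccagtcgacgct

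The NFKBIA window held 1 match, GGAAATTCCC, beginning 81 bases before the start. TNFAIP3 held GGAAAGTCCC at 67 and GGAAATCCCC at 55 bases before it. The consensus used was GGG, then A or G, any 2 bases, C or T at 2 positions, and CC. The ICAM1 window held no full match to this consensus, but it holds TGGAAATTCC, which departs from it in the first base alone. A looser pattern that contains the consensus, 3 G, any 5 bases and 2 C on either strand, was elsewhere in the ICAM1 window. Of the 10 genes, 8 had 1 or more windows, 14 in all (RELB and NFKBIE had none in the tables used), and 6 of the 14 windows (42.9%) held a match against 3498 of 35116 windows over all genes (9.96%). The matches belonged to 5 of the 8 genes, NFKBIA, TNFAIP3, BIRC3, NFKB1 and NFKB2. The looser pattern was in 12 of the 14 windows (85.7%) against 54.4% of all windows. A match is a string of letters, and binding was not measured.

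The depth was 38380629 to 79169121 counts a library. The 2 C1 libraries differed more than any other pair, with a Pearson correlation of log2 CPM of 0.932 over 11193 abundant genes against 0.988 to 0.998 in the other conditions, so counts are also given without them. Untreated libraries had 30608 to 33824 identifiers with a count and treated libraries 34591 to 39480. MDA-MB-231 markers (VIM, CD44, AXL, CAV1, SPARC and EGFR) summed to 2415 to 3687 CPM (counts scaled to one library size, with TMM normalization) in untreated and 1952 to 2575 CPM in treated libraries, and markers that the line lacks to 12.5 to 17.1 CPM. Of the 6, AXL, EGFR and CAV1 were lower in treated than in untreated libraries (log2 -0.87, -0.45 and -0.33) and SPARC fell along the doses, and their part in the changes of the 10 genes was not tested. In bulk RNA a change in RNA per cell and a change in the share of cells that make it cannot be told apart.

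The loci on GRCh37, the build of the counts, are NFKB1 (ENSG00000109320) chr4:103422487-103538459, NFKB2 (ENSG00000077150) chr10:104153867-104162281, RELA (ENSG00000173039) chr11:65421070-65430561 and RELB (ENSG00000104856) chr19:45504719-45541450. The others are NFKBIA (ENSG00000100906) chr14:35870285-35873955, NFKBIE (ENSG00000146232) chr6:44225903-44233525, TNFAIP3 (ENSG00000118503) chr6:138188351-138204451, BIRC3 (ENSG00000023445) chr11:102188215-102210134, TRAF1 (ENSG00000056558) chr9:123664671-123691451 and ICAM1 (ENSG00000090339) chr19:10381769-10397291. The gene annotation that the counting used is not given in the sources used here.

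Per kilobase of exon, NFKBIA had the highest level, a mean of 104.7 CPM per kb over the 12 libraries. NFKB2 followed with 26.0, BIRC3 with 21.1, ICAM1 with 18.3, TNFAIP3 with 16.4 and RELB with 15.7 CPM per kb. RELA (11.6), NFKBIE (11.2), TRAF1 (8.40) and NFKB1 (4.94 CPM per kb) were lowest. This order rests on the exon lengths used, 15679 bases for NFKB1 against 2581 to 7484 for the other genes. By mean CPM, not divided by length, NFKB1 (77.4) lay above RELA (63.2), ICAM1 (63.1), RELB (47.0), TRAF1 (37.6) and NFKBIE (28.9). NFKB1 lay below NFKBIA, BIRC3, NFKB2 and TNFAIP3 by that measure. Between conditions, the mean CPM of ICAM1 varied 12.05-fold, that of TRAF1 4.62-fold, TNFAIP3 4.44-fold, RELB 4.17-fold and NFKBIE 3.11-fold, and that of RELA 1.38-fold. C1 was the lowest condition for every gene except RELA. In a test of any difference among the 6 conditions 7 of the 10 genes passed (edgeR's quasi-likelihood test, adjusted p under 0.05), where 11.0% of all tested genes did, and NFKB1 (adjusted p = 0.251), RELA (0.538) and BIRC3 (0.0643) did not.

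**Figure D1:**
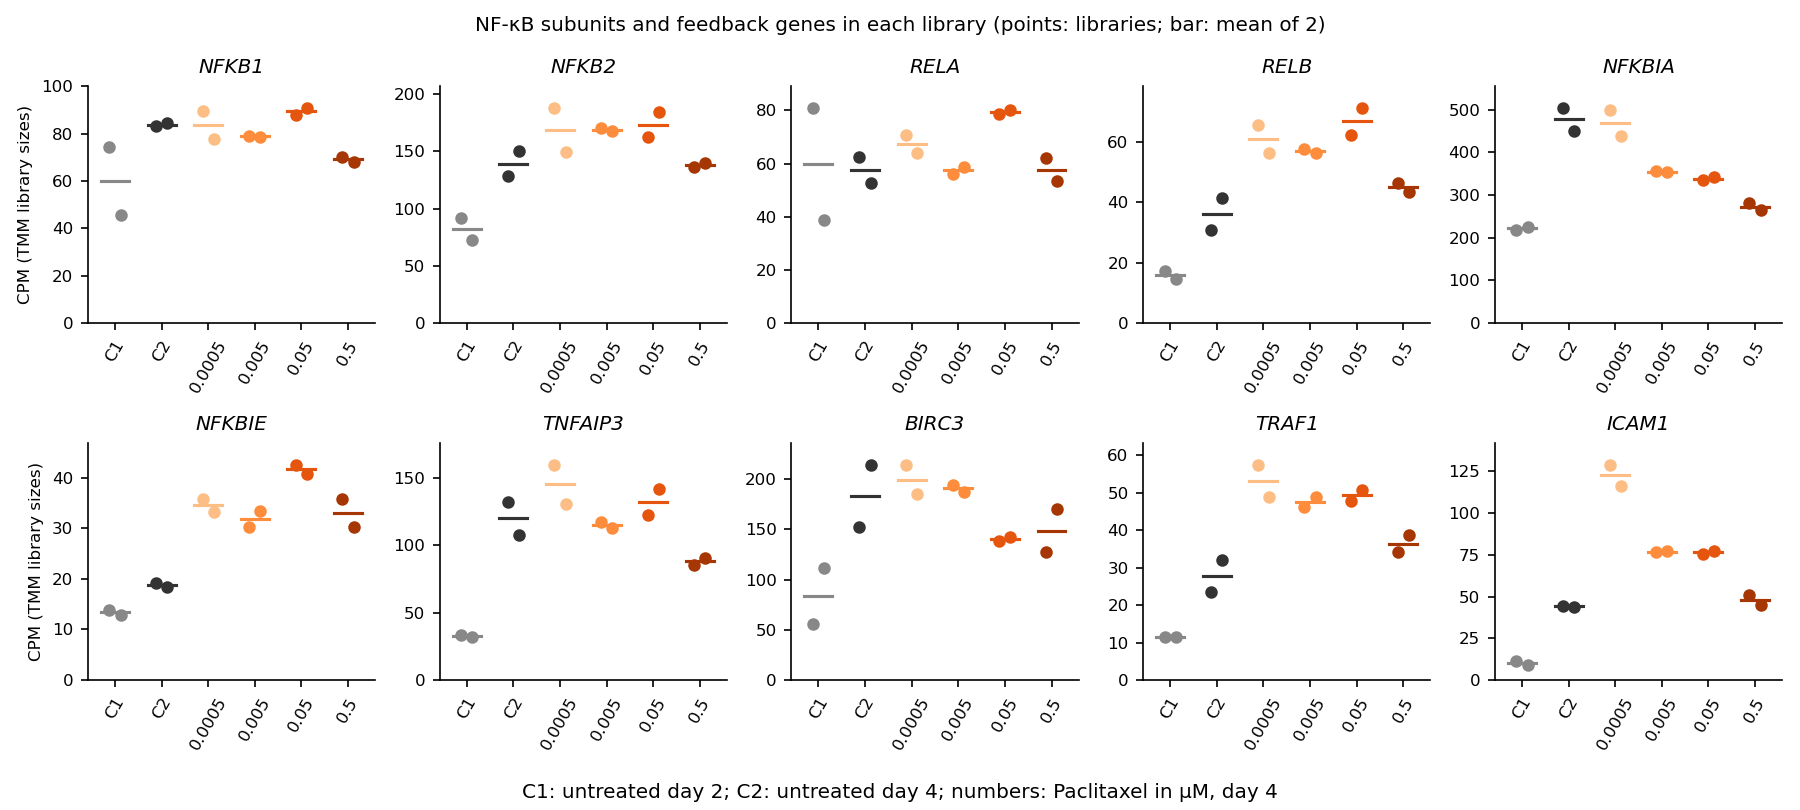
CPM on TMM library sizes (vertical axes, linear, from 0) of each of the 10 genes in the 12 libraries, by condition; points are libraries and bars the mean of 2. C1 lies lowest for 9 of the 10 genes, ICAM1 is highest at 0.0005 µM, NFKBIA falls from 0.0005 to 0.5 µM, and NFKBIE lies above both untreated conditions at every dose.

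Between the untreated days, which asks how the culture changed with time, 5 of the 10 genes rose and none fell, where 0.321% of all tested genes rose and 0.00396% fell. The adhesion receptor gene ICAM1 rose most. It measured 11.6 and 8.74 CPM in C1 and 44.3 and 43.9 CPM in C2, so that the days did not overlap, a 4.31-fold rise (log2 2.11, SE 0.16, adjusted p = 0.000169 by edgeR's quasi-likelihood test, n = 2 and 2). TNFAIP3, a ubiquitin-editing enzyme that shuts NF-κB signalling down, measured 33.5 and 31.9 CPM in C1 and 132 and 108 CPM in C2. The days lay far apart, and the rise was 3.66-fold (log2 1.87, SE 0.16, adjusted p = 0.000214 by the same test). TRAF1, an adaptor of tumour necrosis factor receptors, rose 2.41-fold (adjusted p = 0.00648), RELB 2.25-fold (adjusted p = 0.0109) and NFKBIA 2.15-fold (adjusted p = 0.00414).

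The other genes did not pass between the days. BIRC3, a ubiquitin ligase that inhibits cell death, measured 55.8 and 112 CPM in C1 and 152 and 215 in C2. The conditions did not overlap, but the replicates of each differed by a wide margin (log2 1.13, SE 0.28, adjusted p = 0.173). NFKB2 stood at log2 0.76 (SE 0.16, adjusted p = 0.103), NFKBIE and NFKB1 each at 0.48 (adjusted p = 0.288 and 0.454) and RELA at -0.06 (adjusted p = 0.947). In total 9 of the 10 genes were higher in both C2 libraries than in both C1 libraries, a pattern that 15.9% of all tested genes had. RELA was the exception, with 81.1 and 38.8 CPM in C1 around 62.3 and 52.7 in C2. The median log2 change of the 10 genes was 1.12 and that of all tested genes -0.02.

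These calls rested on a spread shared with the treated libraries. In a fit of the 4 untreated libraries alone edgeR called 0 of the 10 genes, of which 7 had an unadjusted p under 0.05, and 0 of all genes (599 at an unadjusted p under 0.05), while DESeq2 on all 12 libraries called 7 of the 10. Leaving out 1 library in the fit of all 12 gave 10 calls when it was replicate 1 of C1, 7 when it was replicate 2 of C1, 4 when it was replicate 1 of C2 (NFKBIA lost, adjusted p = 0.06) and 3 when it was replicate 2 of C2 (RELB lost, adjusted p = 0.101, and TRAF1, 0.053). Over all tested genes these fits called 2682, 1884, 47 and 49 against 82 with all libraries. The value of RELA was log2 0.57 without replicate 1 of C1 and -0.46 without replicate 2, opposite in direction.

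The doses were each compared with C2, which all 4 comparisons share. Of the 10 genes, 4 were higher at 0.0005 µM (1.87% of all tested genes were), 3 at 0.005 µM (2.50%), 4 at 0.05 µM (5.09%) and 1 at 0.5 µM (4.36%). Lower were 0 at 0.0005 µM (0.479% of all genes), 0 at 0.005 µM (0.776%), 1 at 0.05 µM (3.23%) and 1 at 0.5 µM (1.96%), and in both cases this was NFKBIA. The genes that rose were ICAM1, NFKBIE, TRAF1 and RELB, and neither NFKB1 nor RELA, the canonical subunit genes, passed at any dose. The median log2 change of the 10 genes ran 0.28, 0.17, 0.39 and -0.0016 from the lowest to the highest dose, and that of all tested genes lay between -0.01 and 0.04. Above both C2 libraries in both of their own were 5, 5, 7 and 4 of the 10 genes, where 27.1%, 32.9%, 26.1% and 31.7% of all genes were, and below both were 0, 2, 2 and 3, where 25.9%, 29.3%, 26.9% and 27.3% were, so such separation alone is common here.

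**Figure D2:**
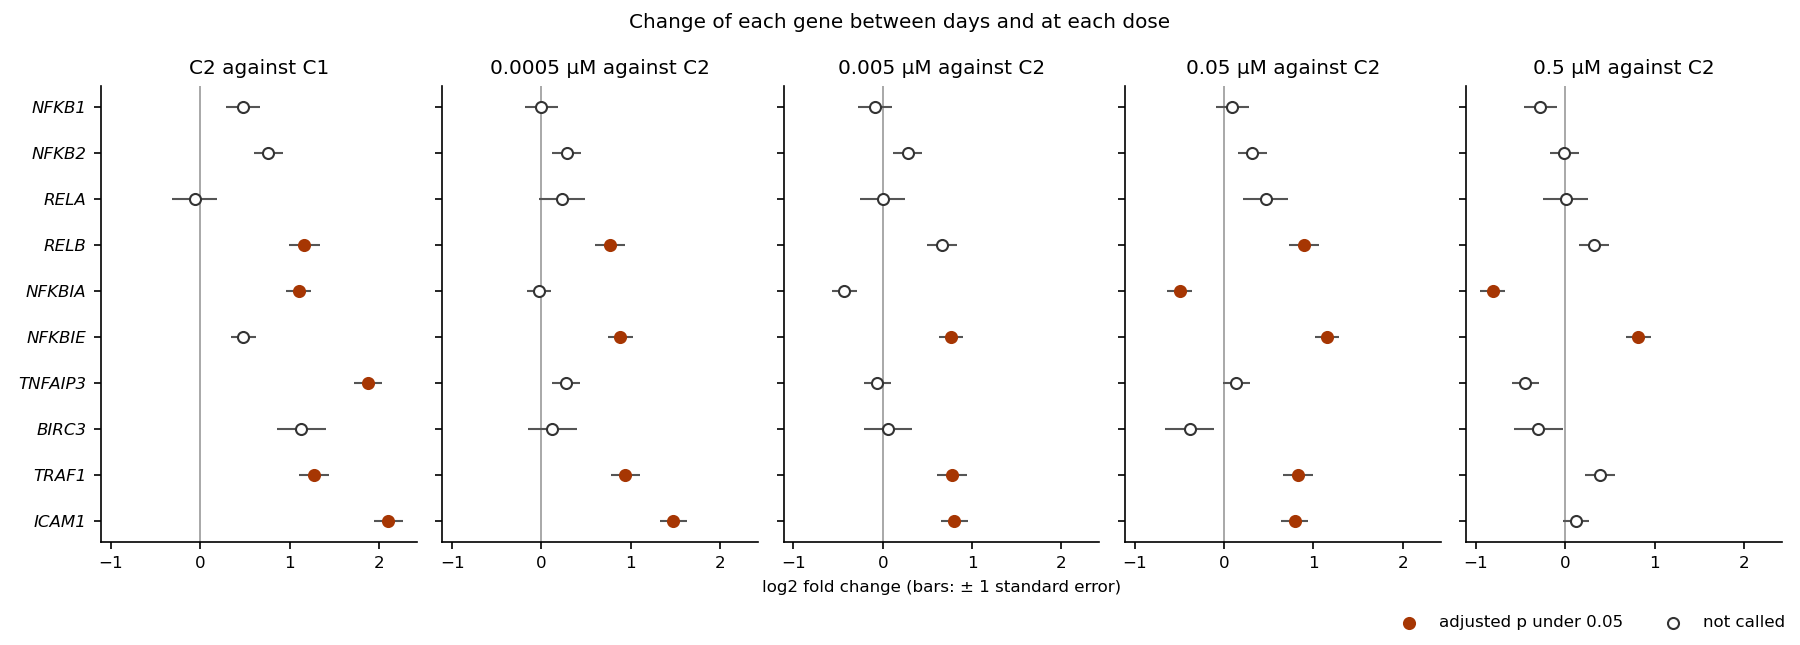
Log2 fold change (horizontal axes) of each gene for C2 against C1 and for each dose against C2, with bars of 1 standard error from the quasi-likelihood fit of 12 libraries; filled points have an adjusted p under 0.05. NFKBIE is filled at all 4 doses, ICAM1 and TRAF1 at the 3 lower doses, and NFKBIA is filled to the left of 0 at 0.05 and 0.5 µM.

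Of the inhibitors, NFKBIE was higher at all 4 doses. It measured 19.1 and 18.4 CPM in C2, 35.8 and 33.2 at 0.0005 µM, 30.3 and 33.4 at 0.005 µM, 42.6 and 40.8 at 0.05 µM, and 35.8 and 30.3 at 0.5 µM. Every treated library lay above every untreated one, C1 included (13.9 and 12.9 CPM). The folds against C2 were 1.84, 1.70, 2.22 and 1.76 (log2 0.88, 0.77, 1.15 and 0.82, SE 0.14 each) with adjusted p = 0.00532, 0.0121, 0.000703 and 0.00651 by edgeR's quasi-likelihood test. There was no trend along the doses that passed (log2 0.02 per 10-fold dose, SE 0.05, adjusted p = 0.855). Only the call at 0.05 µM held in all 21 alternative fits (adjusted p up to 0.0168). Leaving out a C2 library ended the others, with adjusted p = 0.0711 without replicate 1 and 0.0756 without replicate 2 at 0.0005 µM, 0.134 and 0.0951 at 0.005 µM, and 0.0818 and 0.0578 at 0.5 µM. So did leaving out replicate 1 at 0.0005 µM (0.0741), replicate 1 (0.0754) or 2 (0.141) at 0.005 µM and replicate 1 at 0.5 µM (0.0732). The direction was the same in every fit, with log2 values of 0.66 to 1.39.

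NFKBIA, the inhibitor gene that NF-κB switches on fastest, went the other way with dose. It measured 505 and 450.1 CPM in C2, 499 and 439 at 0.0005 µM, 355 and 353 at 0.005 µM, 335 and 342 at 0.05 µM, and 280.1 and 264 at 0.5 µM. Libraries at 0.0005 µM overlapped C2, and each of the 3 higher doses lay below both, in an order that fell with dose without overlap between neighbouring doses. C1 was lower still, at 219 and 226 CPM. Against C2 the log2 changes were -0.03, -0.43, -0.50 and -0.81 (SE 0.14 each) with adjusted p = 0.941, 0.117, 0.0459 and 0.00695 by edgeR's quasi-likelihood test. Along the doses 2 of the 10 genes fell (2.11% of all genes did) and none rose (1.04%). Over the 8 treated libraries NFKBIA fell by 0.24 on the log2 scale per 10-fold dose (SE 0.04, adjusted p = 0.00771), and this was lost without replicate 1 at 0.0005 µM (0.134) or replicate 2 at 0.5 µM (0.0588). The call at 0.05 µM held in 6 of 21 alternative fits (adjusted p 0.00558 to 0.799): it was lost with RLE scaling (0.0505), with the replicate block (0.0548), with no filter (0.114), in the 4 libraries alone (0.0646), with both untreated days as control and without any 1 library of C2 or of the treated conditions (0.0647 to 0.293). That at 0.5 µM was lost without replicate 1 of C2 (0.104), without replicate 2 at 0.5 µM (0.103) and with both untreated days as control (0.167).

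The log2 ratio of NFKBIE to NFKBIA within a library does not depend on library scaling. It was -3.97 and -4.12 in C1, -4.72 and -4.61 in C2, -3.80 and -3.72 at 0.0005 µM, -3.55 and -3.40 at 0.005 µM, -2.97 and -3.07 at 0.05 µM, and -2.97 and -3.12 at 0.5 µM. All treated libraries lay above all untreated ones, C2 below C1, and the libraries at 0.05 and 0.5 µM overlapped. The treated mean of -3.33 exceeded the untreated mean of -4.36 by 1.03 (exact permutation test, two-sided, p = 0.00202, the smallest that 495 arrangements allow, adjusted p = 0.00909) and the C2 mean of -4.67 by 1.34 (exact p = 0.0222, the smallest that 45 arrangements allow, adjusted p = 0.0333). Among the treated libraries the ratio rose by 0.26 per 10-fold dose (exact permutation p = 0.00317, adjusted p = 0.00909). The ratios were chosen after the values were seen, from 45 possible pairs of the 10 genes, and p-values were adjusted over 9 tests of 3 ratios. That adjustment does not allow for the choice, so these p-values are descriptive. The treated group also joins libraries of different doses.

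Of the subunit genes, RELB was the one that passed at a dose. It measured 17.4 and 14.7 CPM in C1, 30.8 and 41.4 in C2, 65.8 and 56.5 at 0.0005 µM, 57.6 and 56.4 at 0.005 µM, 62.4 and 71.5 at 0.05 µM, and 46.5 and 43.4 at 0.5 µM. C1 lay below C2 and C2 below every treated library, without overlap. The log2 changes against C2 were 0.76, 0.66, 0.89 and 0.32 (SE 0.17 each) with adjusted p = 0.0346, 0.0543, 0.00878 and 0.283 by edgeR's quasi-likelihood test. At 0.005 µM RELB passed in 8 of 21 alternative fits, DESeq2 among them (adjusted p = 0.0147, over a range of 0.000264 to 0.454). At 0.0005 µM the call was lost without replicate 1 of C2 (0.269) or any 1 treated library (0.0511 to 0.232), and at 0.05 µM without replicate 1 of C2 (0.119) or replicate 2 at 0.05 µM (0.0962).

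NFKB2 followed RELB in outline with smaller changes. It measured 91.4 and 72.4 CPM in C1 and 128 and 149.9 in C2, between 149.6 and 188 at the 3 lower doses, and 136 and 140.0 at 0.5 µM. All treated libraries lay above C1, and those at 0.005 and 0.05 µM lay above both C2 libraries. No dose passed against C2 (log2 0.28, 0.28, 0.32 and -0.01, SE 0.16, adjusted p = 0.272 to 0.98 by edgeR's quasi-likelihood test). NFKB1 lay between 68.0 and 91.0 CPM in the 10 libraries of day 4, and RELA between 52.7 and 80.1. The highest libraries of RELA on day 4 were those at 0.05 µM, 78.8 and 80.1 CPM (log2 0.47 against C2, SE 0.25, adjusted p = 0.305). Without either or both C1 libraries this difference in RELA passed (adjusted p = 0.00693 to 0.0121), as it did in the 4 libraries alone (0.0156) and with a GC content and length correction (0.0413), over a range of 0.00693 to 0.624. RELA shares 103 exon bases with RELA-DT on the other strand.

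Ratios were also taken of subunit genes, likewise chosen after the values were seen, and treated against untreated mixes drug and day. The log2 ratio of RELB to RELA averaged -0.19 in treated and -1.25 in untreated libraries, a difference of 1.06 (exact permutation test, two-sided, p = 0.00404, adjusted p = 0.00909). On day 4 alone it exceeded the C2 mean of -0.68 by 0.49, and 1 C2 library (-0.35) overlapped the treated range, with an exact p of 0.0444 and an adjusted p = 0.0571. The log2 ratio of NFKB2 to NFKB1 averaged 1.01 in treated and 0.60 in untreated libraries, 0.41 apart without overlap (exact permutation p = 0.00202, adjusted p = 0.00909), and against C2 (0.73) 0.29 apart (exact p = 0.0222, adjusted p = 0.0333). Neither ratio had a slope on dose that passed (log2 -0.09 and -0.02 per 10-fold dose, adjusted p = 0.0714 and 0.518, exact permutation tests).

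**Figure D3:**
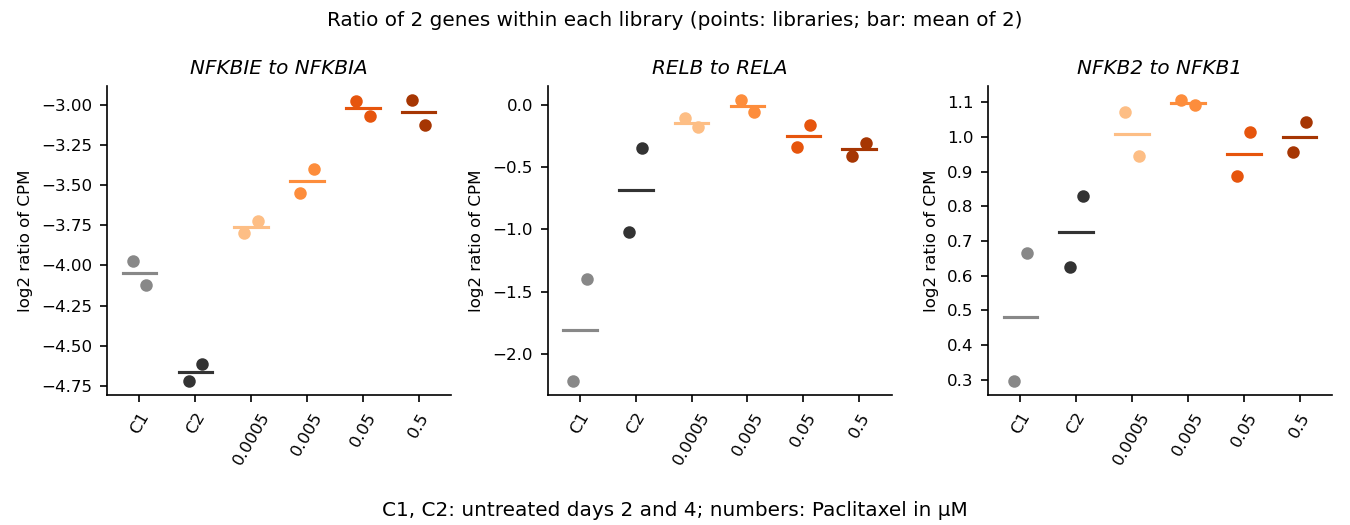
Log2 ratio of CPM of 2 genes within each library (vertical axes, not from 0), by condition; points are libraries and bars the mean of 2. The ratio of NFKBIE to NFKBIA is lowest in C2 (mean -4.67), rises to 0.05 µM and overlaps between 0.05 and 0.5 µM, while RELB to RELA and NFKB2 to NFKB1 have their lowest mean in C1 and lie close together at the 4 doses.

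ICAM1, which binds leukocyte integrins, was highest at the lowest dose. It measured 129 and 116 CPM at 0.0005 µM, 76.5 and 77.3 at 0.005 µM, 75.5 and 77.4 at 0.05 µM, and 50.9 and 45.0 at 0.5 µM, above the C2 values of 44.3 and 43.9 CPM. Every treated library was above every C2 library, by a narrow margin at 0.5 µM, and the 2 middle doses overlapped each other. The folds were 2.78, 1.74, 1.73 and 1.09 (log2 1.48, 0.80, 0.79 and 0.12, SE 0.15 each) with adjusted p = 0.000325, 0.0148, 0.00901 and 0.667 by edgeR's quasi-likelihood test. Along the doses ICAM1 fell by 0.41 on the log2 scale per 10-fold dose (SE 0.05, adjusted p = 0.000481), and this held in all 14 alternative fits of the slope, as the call at 0.0005 µM did in all 21. The call at 0.005 µM was lost without replicate 1 (0.171) or 2 (0.0987) of C2 or replicate 1 (0.128) or 2 (0.122) at that dose, and the call at 0.05 µM without replicate 1 (0.0954) or 2 (0.0674) of C2 or replicate 2 at that dose (0.0899). ICAM1 shares 815 exon bases with ICAM4-AS1 and 61 with LIMASI on the other strand, and whether the counting used strand was not stated.

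TRAF1 went with RELB. It measured 11.6 and 11.5 CPM in C1, 23.5 and 32.1 in C2, 57.5 and 48.8 at 0.0005 µM, 46.2 and 48.8 at 0.005 µM, 47.8 and 50.8 at 0.05 µM, and 34.1 and 38.7 at 0.5 µM. Treated libraries all lay above C2, closest at 0.5 µM. The folds against C2 were 1.91, 1.71, 1.77 and 1.31 (log2 0.94, 0.77, 0.83 and 0.39, SE 0.16 each), with adjusted p = 0.0112, 0.0254, 0.011 and 0.179 by edgeR's quasi-likelihood test. Without replicate 1 of C2 the calls were lost (0.133, 0.293 and 0.141), as they were without replicate 1 at 0.0005 µM (0.117), replicate 1 (0.153) or 2 (0.178) at 0.005 µM or replicate 2 at 0.05 µM (0.0946 at its own dose, 0.0538 at 0.005 µM). Over the 12 libraries the log2 CPM of TRAF1 and RELB had a Pearson correlation of 0.989, the highest of the 45 pairs among the 10 genes, a description of libraries that share conditions.

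TNFAIP3 and BIRC3 did not pass at any dose against C2. TNFAIP3 measured 159.8 and 131 CPM at 0.0005 µM, 117 and 113 at 0.005 µM, 122 and 142 at 0.05 µM, and 85.4 and 90.7 at 0.5 µM. At 0.5 µM both libraries lay below the C2 values of 132 and 108, and every other dose overlapped them (log2 -0.45, SE 0.15, adjusted p = 0.107 by edgeR's quasi-likelihood test). This difference in TNFAIP3 passed without either or both C1 libraries (adjusted p = 0.0207 to 0.0228, over a range of 0.0207 to 0.586), and with both untreated days as control TNFAIP3 passed in the opposite direction (log2 0.49, adjusted p = 0.0269). BIRC3 was between 185 and 214 CPM at the 2 lower doses and between 127 and 170.1 at the 2 higher, around C2 values that were themselves wide apart (log2 0.12, 0.06, -0.38 and -0.30, SE 0.27, adjusted p = 0.442 to 0.925). Slopes on dose of log2 -0.19 for TNFAIP3, -0.17 for BIRC3 and -0.16 for TRAF1 did not pass (adjusted p = 0.076, 0.0825 and 0.0733), and passed with DESeq2 (0.0107, 0.0092 and 0.011). TNFAIP3 shares 95 exon bases with WAKMAR2 and BIRC3 126 with an unnamed long noncoding RNA, both on the other strand.

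The counts at the doses leaned on the C2 libraries. Without replicate 1 of C2 the number of the 10 genes called was 1, 0, 1 and 0 from the lowest to the highest dose, and 3, 1, 3 and 1 without replicate 2 of C2. Over all tested genes the calls were 144, 85, 321 and 129 without replicate 1 of C2 and 248, 304, 834 and 569 without replicate 2, against 592, 827, 2100 and 1596 with all libraries. It was 1 at 0.0005 µM without replicate 1 of that dose, 0 at 0.005 µM without either replicate of that dose, 1 at 0.05 µM without replicate 2 of that dose and 1 at 0.5 µM without either replicate of that dose. Over all tested genes these fits called 189 at 0.0005 µM, 175 and 184 at 0.005 µM, 436 at 0.05 µM and 480 and 259 at 0.5 µM, so the calls among the 10 genes fell along with those of all genes. In the counts of 0, 4 to 5 of the 10 genes at 0.005 µM and 2 at 0.5 µM had an unadjusted p under 0.05 by edgeR, and DESeq2 on all libraries called 5 and 2. In these fits 1 library stands alone and is assumed to vary as the other conditions do.

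The 8 treated libraries were also set against the 4 untreated ones, in a comparison that mixes the drug with the day. Of the 10 genes 5 were higher and none lower, where 13.0% of all tested genes were higher and 11.5% lower. They were NFKBIE (2.21-fold, log2 1.14, SE 0.13, adjusted p = 2.51e-05 by edgeR's quasi-likelihood test), RELB (2.22-fold, adjusted p = 0.00178), TRAF1 (2.38-fold, adjusted p = 0.00138), ICAM1 (3.00-fold, adjusted p = 0.00891) and NFKB2 (1.48-fold, adjusted p = 0.0175). In 4 of them (NFKBIE, RELB, TRAF1 and ICAM1) every treated library was above every untreated one, a pattern that 7.28% of all tested genes had. Without both C1 libraries, which leaves day 4 alone, NFKBIE, RELB and TRAF1 still passed with smaller differences (log2 0.92, 0.68 and 0.75), while ICAM1 (log2 0.89, adjusted p = 0.121) and NFKB2 (log2 0.23, adjusted p = 0.265) did not. NFKB2 was also lost without replicate 1 of C1 (0.0664), and ICAM1 with no filter on low counts (0.0718). NFKBIA stood at log2 0.04 with C1 and at -0.40 without it.

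The order of levels over all conditions set ICAM1 apart from NFKBIA. For ICAM1 it ran C1, C2, 0.5, 0.05, 0.005 and 0.0005 µM from low to high, and only 0.05 and 0.005 µM were not separated by their libraries. For NFKBIA it ran C1, 0.5, 0.05, 0.005, 0.0005 µM and C2, and only the last pair overlapped. RELB and TRAF1 both ran C1, C2, 0.5 and then 0.005 µM with all neighbours apart. Above that, neighbours in the order of the 3 lower doses overlapped, though for RELB 0.005 µM lay below 0.05 µM without overlap. NFKBIE ran C1, C2 and then the doses, of which 0.05 µM was highest and apart from the rest. RELA had a single gap between neighbours in its order, from 0.0005 to 0.05 µM, though 1 C1 library (81.1 CPM) lay above both libraries at 0.05 µM (78.8 and 80.1). Over the 45 pairs of the 10 genes the median Pearson correlation of log2 CPM was 0.739, with 35 pairs above 0.5 and RELA with BIRC3 the one pair below 0.

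Genes of the same pathway were counted in lists compiled by hand with earlier results of these data known. The 24 genes of kinases and adaptors between receptor and inhibitor had medians of -0.0054 at 0.0005 µM and -0.15 at 0.5 µM (log2 against C2), and 1, 0, 2 and 2 of them were lower from the lowest to the highest dose (0.479%, 0.776%, 3.23% and 1.96% of all tested genes were). TRAF5, an adaptor, was lower at 0.0005, 0.05 and 0.5 µM (log2 -0.66, -0.68 and -0.52, adjusted p = 0.023, 0.0111 and 0.0406 by edgeR's quasi-likelihood test), and MAP3K7, the kinase that activates the IκB kinases, at 0.05 and 0.5 µM (log2 -0.54 and -0.45, adjusted p = 0.0182 and 0.0465). None of the 24 was higher at a dose (1.87% to 5.09% of all tested genes were). None passed between the untreated days either, where 0.321% of all tested genes rose and 0.00396% fell, so these counts of 0 lie near the shares of all genes. In treated against untreated libraries IKBKE, an IκB kinase gene, was higher (log2 0.38, adjusted p = 0.0102) and TRAF5, MAP3K7 and TAB1 were lower (log2 -0.45, -0.37 and -0.49), where 13.0% of all tested genes were higher and 11.5% lower. Of 5 other subunits and inhibitors, NFKBIZ rose between the untreated days (log2 1.84, adjusted p = 0.00114) and was lower at 0.5 µM (log2 -0.85, adjusted p = 0.0195), and NFKBID was lower at 0.05 and 0.5 µM (log2 -1.03 and -1.01, adjusted p = 0.00943 and 0.014). None of 8 other negative regulators passed at a dose, where 0.479% to 5.09% of all tested genes did in each direction, so a count of 0 in 8 lies near the share of all genes. Of these regulators ZC3H12A, an endonuclease that degrades inflammatory messages, rose between the untreated days (log2 1.28, adjusted p = 0.0085). Against all untreated libraries, ZC3H12A, TNIP3 and TNIP1 were higher (log2 0.97, 1.31 and 0.58) and OTULIN lower (log2 -0.30).

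Of 9 genes of ligands upstream of the pathway 8 were tested, and 3 were higher at 0.0005 µM (1.87% of all tested genes were), 2 at 0.005 µM (2.50%), 2 at 0.05 µM (5.09%) and 1 at 0.5 µM (4.36%). IL1B, which encodes an interleukin 1, measured 12.3 and 18.5 CPM in C2, 62.2 and 69.8 at 0.0005 µM and 12.2 and 11.9 at 0.5 µM. It fell back to the C2 level at the top dose, with log2 2.10 at 0.0005 µM (adjusted p = 0.00027), -0.35 at 0.5 µM (0.334) and a slope of -0.81 per 10-fold dose (adjusted p = 1.28e-08). LTA, which encodes lymphotoxin alpha, had its highest values at the top dose, 0.495 and 0.644 CPM, against 0.292 and 0.238 at 0.0005 µM and 0.0819 and 0.129 in C2. It was the ligand gene that passed at 0.5 µM (log2 2.42, adjusted p = 0.0146). Of 11 cytokine and chemokine targets 6, 4, 3 and 0 were higher from the lowest to the highest dose, 1 (CCL2) was lower at 0.05 µM, and 10 fell along the doses. CCL20, a chemokine, measured 28.6 and 28.2 CPM at 0.0005 µM against 1.88 and 3.51 in C2, a log2 change of 3.40 (adjusted p = 0.00051), and 4.70 and 6.79 at 0.5 µM. CXCL1 measured 116 and 106 CPM at 0.0005 µM, 37.9 and 41.7 in C2 and 39.7 and 38.85 at 0.5 µM (slope log2 -0.48, adjusted p = 4.69e-06). Like ICAM1 and NFKBIA, then, 10 of the 11 fell along the doses, where 2.11% of all tested genes did.

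Of 17 tested other targets, 5 were higher at 0.0005 µM (1.87% of all tested genes were), 3 at each higher dose (2.50%, 5.09% and 4.36%), and 6 fell along the doses (2.11%). BCL2L1, which encodes an inhibitor of apoptosis, was the one lower, at 0.5 µM and in treated against untreated libraries. PTGS2, which makes prostaglandins, was higher at all 4 doses (log2 1.76, 1.40, 0.89 and 0.60, adjusted p = 0.000179, 0.00116, 0.00779 and 0.0495) and fell by 0.40 on the log2 scale per 10-fold dose. VCAM1, an adhesion receptor like ICAM1, had 0 counts in all 4 untreated libraries, which allows up to 0.0895 CPM in the shallowest, and 4 to 39 counts in the treated ones. Among 11 receptors 1 was higher at 0.0005 µM, TNFRSF9 (log2 0.84, adjusted p = 0.0212), which had also risen between the untreated days (log2 2.53, adjusted p = 0.000169). At 0.05 µM TNFRSF1B was higher (log2 1.57, adjusted p = 0.024) and TLR4 lower, and none passed at 0.005 or 0.5 µM. In treated against untreated libraries TNFRSF9, TNFRSF1B and IL1R1 were higher and TNFRSF11A lower, 3 and 1 of 11 where 13.0% and 11.5% of all tested genes were.

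**Figure D4:**
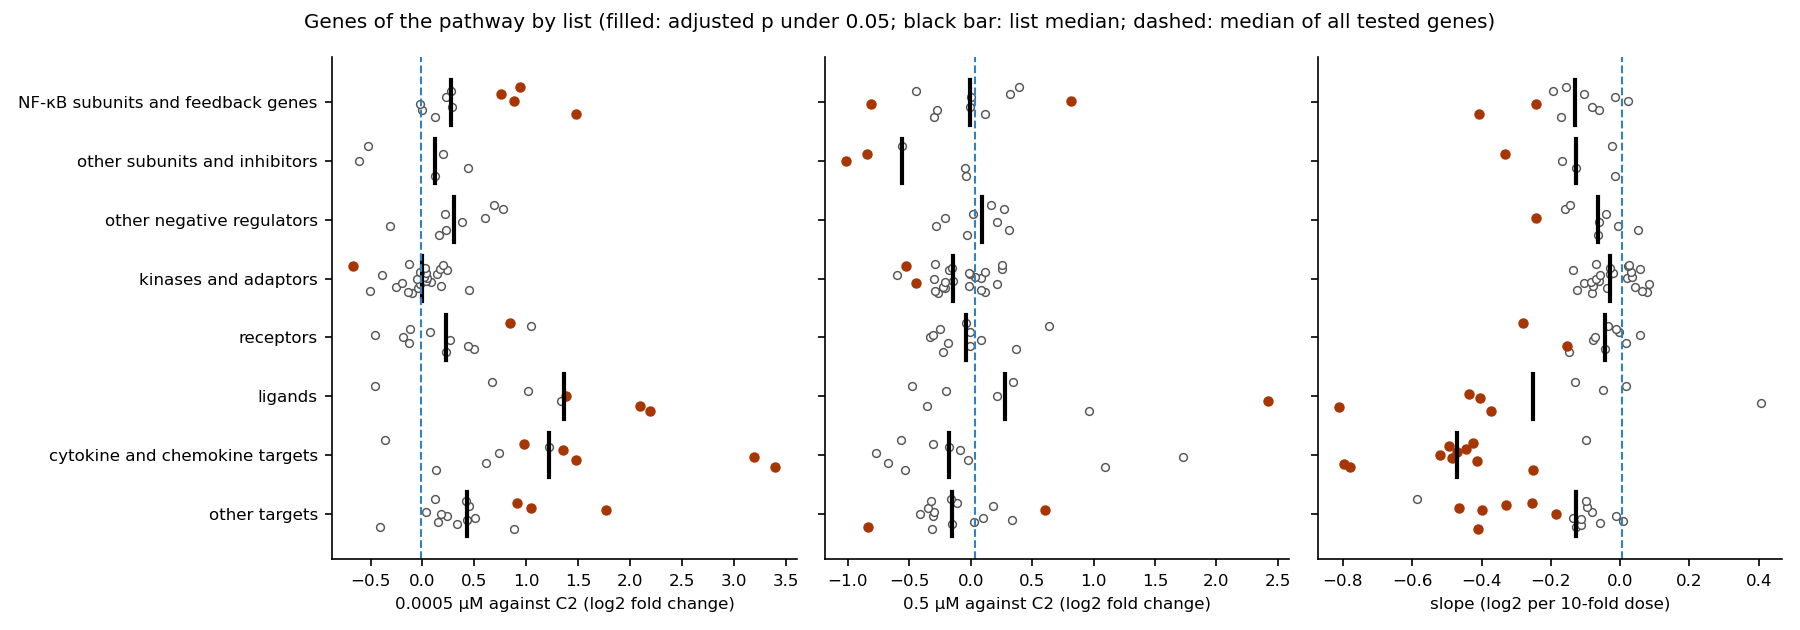
Log2 change at 0.0005 and 0.5 µM against C2 and slope per 10-fold dose (horizontal axes) of each tested gene in 8 lists; filled points have an adjusted p under 0.05, black bars are list medians and dashed lines the median of all tested genes. The points of CCL5, MMP9, TNFSF11 and VCAM1, which have under 0.05 CPM in C2, are left out of the first 2 panels but count in the medians; the cytokine and chemokine targets lie to the right at 0.0005 µM and to the left in the slope.

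Other measures moved with the same samples. Of 16 immediate early and heat shock genes, which many stimuli induce within minutes, 1, 8, 9 and 10 were lower from the lowest to the highest dose (0.479%, 0.776%, 3.23% and 1.96% of all tested genes were) and 0, 0, 3 and 1 were higher (1.87%, 2.50%, 5.09% and 4.36%), with list medians of -0.22, -0.81, -0.87 and -1.08 (log2 against C2). FOSB measured 549 and 350.4 CPM in C2 and 46.5 and 39.3 CPM at 0.5 µM. Their part in the fall of NFKBIA with dose was not tested. Marker genes of immune cells (10 listed) summed to 1.43 to 1.97 CPM in untreated and 3.59 to 6.21 CPM in treated libraries, with MS4A1 at 0 in all 12 libraries, and their part in the rise of NFKBIE, RELB, TRAF1 and ICAM1 was not tested. Fibroblast markers summed to 9.22 to 17.0 CPM in untreated and 13.1 to 21.7 CPM in treated libraries, and endothelial markers to 0.626 to 1.65 and 2.08 to 3.24 CPM. Against all untreated libraries all 5 tested immune markers, 3 of 6 tested fibroblast markers (FAP, COL3A1 and PDGFRA) and 2 of 4 endothelial ones (KDR and TEK) were higher and none lower (13.0% of all tested genes were higher and 11.5% lower), and their part in the rise of the same 4 genes was not tested either. Mitochondrial genes took 3.73% to 7.74% of the counts, most in replicate 2 of C1.

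The genes outside the 10 whose pattern was most like their mean pattern over the 12 libraries were ZC3H12A (Pearson r of log2 CPM 0.985), IRAK2 (0.980), CHAC1 (0.979), SESN2 (0.965), FBXO32 (0.963) and DUSP10 (0.960), out of 11081 candidates with a symbol and a mean of at least 5 CPM. Of the 10 genes themselves NFKB2 (0.980), ICAM1 (0.979) and TNFAIP3 (0.969) were nearest to their own mean and RELA (0.482) farthest, a likeness in part built in because each takes part in the mean.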

How the data were processed

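The deposited values were integer read counts per gene, which the authors made by trimming with Trimmomatic 0.39, checking with FastQC 0.11.9, alignment with STAR 2.7.5 to GRCh37 (hg19) and counting of unique exonic reads. The counting strand is not given in the sources used here. The counts were neither normalized nor pooled, and the 12 single-sample files equalled the table of the series. Identifiers were matched to symbols by a gene name table (55665 of 63568). SOD2 and PECAM1 had no matching identifier and were not analysed here. Loci and exon lengths were read from GENCODE release 44 on GRCh37 and promoter sequences from RefSeq on GRCh38.p14.

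Counts were tested in R 4.3.3 with edgeR 4.0.16: TMM scaling, filterByExpr by condition, robust quasi-likelihood fit and Benjamini-Hochberg adjustment over all tested genes (25249 in the model of 6 conditions, 25057 for the slope on log10 dose in 8 libraries, 23645 for treated against untreated), with an adjusted p-value under 0.05 as a call. The model of 6 conditions had 6 residual degrees of freedom and a common biological coefficient of variation of 15.6%. Standard errors were computed as |log2 fold change| over the root of the F value. Log2 CPM used a prior count of 2, and abundant genes had a mean of at least 8 CPM. Ratios were tested by exact permutation over libraries. The procedures were tested on simulated data. Replicates are 2 a condition, stated to be biological, and no pair agreed within sampling noise.

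The alternatives were DESeq2 1.42.0, RLE scaling, no filter, no robust estimation, the replicate block, GC content and length offsets, both untreated days as control, the 4 libraries of a comparison alone, a contrast of treated and untreated in the model of 6 conditions, and leaving out each library in turn. Leaving out both C1 libraries and the ratios were added after the data were seen. The members and lists were chosen with earlier results of these data known. Named were all 10 genes, up to 4 genes of each list with the smallest adjusted p-value at a dose or in treated against untreated (or, where none passed, up to 2 by mean CPM), and the 6 genes most like the mean pattern. CCL2, TLR4, BCL2L1, MS4A1 and the cell line markers, named beside counts or sums, fall outside this rule.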

Additional observations from a re-analysis of the deposited data

Results flagged for a closer look

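The effects of the doses differed in 2 of the 10 genes, as tested by the slope over the 8 treated libraries, where 789 of 25057 tested genes had a slope. NFKBIA had a log2 change of -0.24 per 10-fold dose (SE 0.04, adjusted p = 0.00771 by edgeR's quasi-likelihood test), from 499 and 439 CPM at 0.0005 µM to 280.1 and 264 CPM at 0.5 µM. This slope of NFKBIA was lost without replicate 1 at 0.0005 µM (adjusted p = 0.134) or replicate 2 at 0.5 µM (0.0588). ICAM1 had a log2 change of -0.41 per 10-fold dose (SE 0.05, adjusted p = 0.000481), from 129 and 116 CPM to 50.9 and 45.0 CPM. Conditions had 2 libraries each, too few to look for a library that stands apart in a single gene.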

How the results depend on the processing

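Of 1370 values of single genes under the alternatives, 1232 kept their direction and their side of the threshold, 55 came to pass it, 67 no longer passed it and 16 changed direction; a value within 1 SE of 0 under both settings was given no direction. With both untreated days as control, NFKB1 at 0.0005 µM became log2 0.24, NFKBIA 0.52, 0.12 and 0.0552 at 0.0005, 0.005 and 0.05 µM, TNFAIP3 0.88 and 0.49 at 0.005 and 0.5 µM, BIRC3 0.18 and 0.26 at 0.05 and 0.5 µM, and NFKB2 0.37 at 0.5 µM, and the calls among the 10 genes were 7, 6, 6 and 5 from the lowest to the highest dose, against 4, 3, 5 and 2 (over all tested genes 2085, 3401, 4328 and 3624 against 592, 827, 2100 and 1596). This control mixes days that differed in 5 of the 10 genes. With GC content and length offsets NFKB2 at 0.5 µM became 0.18, and 4 genes had a slope against 2, as 5 did with DESeq2 and 5 with no filter (over all tested genes 1345, 1664 and 1462 against 789). At 0.005 µM 5 genes were called with DESeq2, in the 4 libraries alone and without both C1 libraries (over all genes 1209, 2592 and 3187 against 827). Between the untreated days the 4 libraries alone gave 0 calls against 5 (7 of the 10 with an unadjusted p under 0.05 by edgeR, and 7 called by DESeq2 on all libraries). Treated against untreated, 3 genes were called without both C1 libraries, and NFKB1, NFKBIA and BIRC3 became -0.051, -0.40 and -0.10. The cause of these shifts was not tested.

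Leaving out 1 library gave 1 to 4 calls at 0.0005 µM, 0 to 5 at 0.005 µM, 1 to 6 at 0.05 µM, 0 to 3 at 0.5 µM, 3 to 10 between the untreated days and 1 to 4 for the slope. Over all genes the same fits gave 144 to 2552, 85 to 3316, 321 to 4843, 129 to 5046, 47 to 2682 and 123 to 1008 calls. RELA ranged from -0.46 to 0.57 between the untreated days and, in treated against untreated, from -0.0018 to 0.36, and NFKB1 there from -0.011 to 0.25. With the replicate block the calls were 4, 3, 4 and 2 at the doses, 5 between the days, 5 in treated against untreated, 2 for the slope and 8 for any difference, and over all genes 673, 896, 2182 and 1806, then 92, 5750, 421 and 2988. The correlation of the difference between replicates 1 and 2, over 11193 genes and 15 pairs of conditions, ran from -0.597 (0.0005 with 0.05 µM) to 0.697 (C1 with C2). It was 0.628 for C2 with 0.5 µM. Its sign differed between pairs of conditions, and whether replicate numbers mark a batch in some conditions was not tested.

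The lowest count behind a value of the 10 genes was 293, and the model of 6 conditions over 12 libraries had 6 residual degrees of freedom.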
